A study of Mus musculus with 28 samples.

Results

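p53, encoded by Trp53 in the mouse, and 9 genes it is known to switch on (Mdm2, Ccng1, Sesn1, Sesn2, Trp53inp1, Bax, Bbc3, Perp and Eda2r) were followed in satellite cells, the resident stem cells of muscle. These 10 genes were taken by name from the 22552 genes of each deposited expression table, and all 10 had enough fragments to be tested in every comparison. The study sequenced polyA RNA of cells isolated by FACS from WT mice and from SIRT1mKO mice, both on a C57Bl/6 background. SIRT1mKO mice came from crossing Pax7cre/+ knock-in mice to mice whose Sirt1 exon 4 is floxed, so the deletion is driven by Pax7, a gene of satellite cells, and reaches only cells that have expressed it. Quiescent cells (labelled FI) gave 5 WT and 3 SIRT1mKO libraries. Proliferating cells (labelled Cul), grown in Hams F-10 with 20% fetal bovine serum and bFGF at 12.5 ng/mL, gave 4 WT and 2 SIRT1mKO libraries. Differentiating cells (Diff), moved to 2% horse serum for 24 hours, gave 2 libraries of each genotype. The labels give no ages, and they do not say whether libraries came from separate animals, so p-values measure the spread between these libraries, which may be technical.

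p53 is a transcription factor that is kept low by constant degradation and accumulates after DNA damage or other stress. It then raises genes that halt the cell cycle, adjust metabolism or start cell death, and it raises Mdm2, the ubiquitin ligase that degrades p53 itself, which closes a feedback loop. SIRT1 is an NAD-dependent deacetylase and p53 protein is one of its substrates. The acetylation of p53 is not seen by RNA sequencing, so the values here concern the mRNA of p53 and of its targets.

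Promoter sequence was examined because the p53 decamer, a 10-base motif that p53 recognises in pairs, is what many of these genes have in common as targets. RefSeq promoter windows (GRCm38.p6, 250 bases before to 50 bases after a gene's start) were at hand for 8 of the 10 genes, in 11 windows, and 5 genes held an exact match. The motif reads the same on both strands, so 1 scan covers both. The 5 stretches are shown to let the matched bases be compared, 5′ to 3′ on the gene's strand, with the match in capitals.
Trp53: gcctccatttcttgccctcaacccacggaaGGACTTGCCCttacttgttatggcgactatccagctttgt
Mdm2: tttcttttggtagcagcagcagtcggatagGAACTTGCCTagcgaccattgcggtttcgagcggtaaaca
Ccng1: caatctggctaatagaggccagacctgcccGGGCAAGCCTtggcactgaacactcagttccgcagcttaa
Bax: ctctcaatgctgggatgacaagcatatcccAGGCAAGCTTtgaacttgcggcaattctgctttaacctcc
Sesn1: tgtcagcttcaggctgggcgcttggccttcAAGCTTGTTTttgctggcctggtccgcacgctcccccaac
The windows lie at chr11:69580109-69580408 on the plus strand (Trp53), chr10:117710709-117711008 on the minus strand (Mdm2), chr11:40755237-40755536 on the minus strand (Ccng1), chr7:45466849-45467148 on the minus strand (Bax) and chr10:41887189-41887488 on the plus strand (Sesn1, the second of its 2 starts). The matches begin 75, 186, 185, 201 and 173 bases before the start, in that order. Windows of Bbc3, Sesn2, Eda2r and the other Sesn1 start held no exact match, which says only that these letters are not in these windows. Of all 32851 promoter windows, 8.36% held at least 1 match. A pair of exact matches at most 13 bases apart was found in 24 windows, 0.0731% of all, and none belonged to the 10 genes. A looser rule, set after the sequences were seen, allowed 1 mismatch in 1 motif of the pair. Ccng1 and Bax then each held a pair, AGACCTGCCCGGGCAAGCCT with 0 bases between and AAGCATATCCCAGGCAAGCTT with 1 base between. The mismatch lies in the first 10 bases of each. By that rule 359 windows, 1.09% of all, held a pair. A match is a description of the sequence and does not show binding.

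The 18 libraries differ in ways that touch the results. Each table of SIRT1mKO and WT libraries covers 1 state, and another table, called here the WT state table, holds 2 WT FI and 2 WT Cul libraries. Estimated fragments per library numbered from 28010691 to 65324684 (FI table), from 75674366 to 82590642 (Cul table), from 71858446 to 82825550 (Diff table) and from 24254119 to 31643216 (WT state table). Levels are given as CPM, the share of a library's fragments scaled to a common total, after TMM scaling within a table. Each table numbers its libraries of a condition from 0, and that index is used below as a name. Pax7, the defining marker of satellite cells, stood at 832 to 1059 CPM in the 6 libraries of the FI table but at 138 and 117 CPM in the WT FI libraries of the WT state table, where 9 fibroblast markers summed to 19960 to 28920 CPM against 4694 to 6872 CPM in the FI table, and 7 pericyte and smooth muscle markers to 13810 to 20620 CPM against 2496 to 5768 CPM. Index 0 of both FI genotypes is deeper than the rest of its table and has 8.11% and 8.18% of fragment values not whole (by more than 0.01), against 2.43% to 2.82% in the other FI table libraries, 7.23% to 7.80% in the WT state table and 1.42% to 1.70% in the Cul and Diff tables. The Diff libraries split by index and not by genotype: Myog, a gene of muscle differentiation, stood at 61.2 (WT) and 149 (SIRT1mKO) CPM at index 0 and at 2015 and 3619 CPM at index 1.

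Of the 10 genes, 5 rose and 2 fell in proliferating compared with quiescent WT cells, in the 4 libraries of the WT state table. Trp53, Mdm2, Ccng1, Bax and Eda2r were 5.06 to 11.6 times as high in Cul, whereas Sesn1 and Perp were 4.52 and 26.2 times lower. Trp53inp1, Bbc3 and Sesn2 did not pass the threshold. By the same test, edgeR's quasi-likelihood test at an adjusted p of 0.05, 28.6% of all 14680 genes tested passed (12.6% higher, 16.0% lower), and the median log2 difference was 2.05 over the 10 genes and 0.06 over all genes. At an unadjusted p under 0.05 there were 8 of the 10 and 44.3% of all genes. The groups did not overlap for any of the 10 genes, and they did not overlap for 70.9% of all genes. In bulk RNA, a change in the share of a cell type and a change in RNA per cell cannot be told apart. Non-myogenic markers were lower in Cul: 7 of 9 fibroblast, 6 of 8 endothelial, 5 of 7 pericyte and smooth muscle, 1 of 7 leukocyte, 2 of 5 Schwann cell and 3 of 3 erythroid markers fell, while of 12 satellite cell and myogenic markers 1 rose and 2 fell. The part of these cell types in the result was not tested.

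Trp53 itself stood at 49.0 and 35.7 CPM in the quiescent libraries and at 362 and 178 CPM in the proliferating ones. Both Cul libraries were above both FI libraries, and the rise was 2.67 on the log2 scale (SE 0.50, adjusted p = 0.0211 by edgeR). Some of the Trp53 count is uncertain, because a pseudogene of it, Trp53-ps, exists. Mdm2, the ligase that degrades p53, was at 70.1 and 78.1 CPM in FI and 337 and 588 CPM in Cul. The quiescent libraries were close together and the proliferating ones far above them, with a log2 difference of 2.64 (SE 0.45, adjusted p = 0.0175 by edgeR). Cul levels were 6.36 (Trp53) and 6.24 (Mdm2) times the FI levels. Without WT FI index 1, Trp53 was at 2.46 and did not pass (adjusted p = 0.0826), and Mdm2, with WT FI index 0 or 1 left out, was at 2.56 and 2.73 and did not pass (adjusted p = 0.0921 and 0.0619). These estimates lie close to those of all 4 libraries, and WT FI holds 1 library in each of these fits. Why Trp53 and Mdm2 did not pass in them was not tested.

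**Figure D1:**
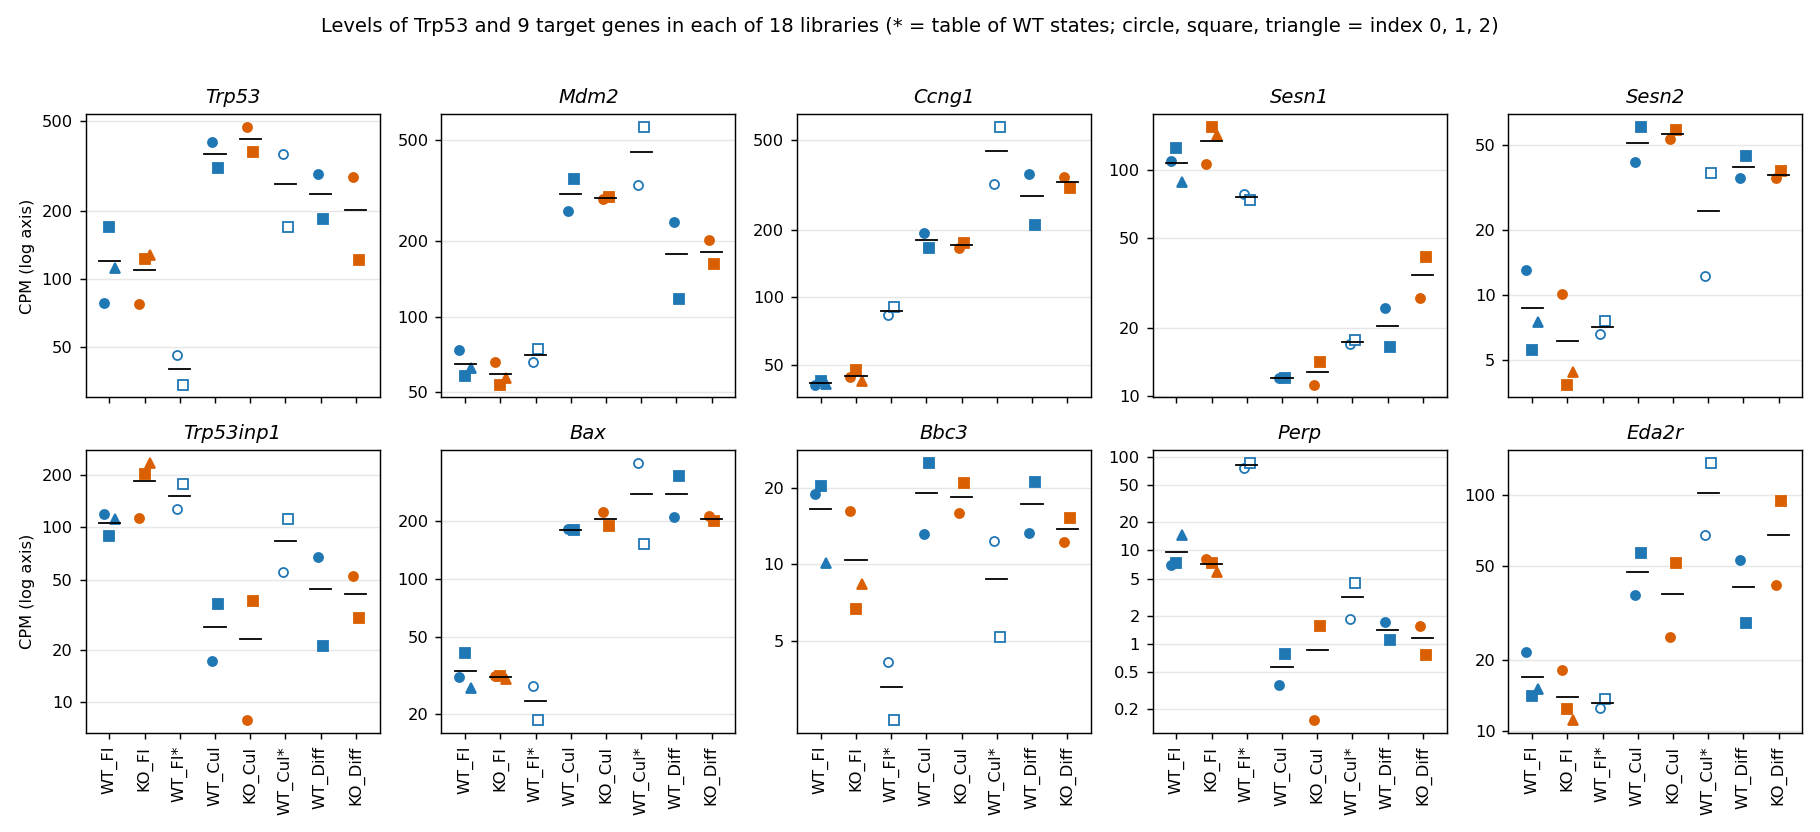
Levels of the 10 genes in CPM scaled over all 18 libraries (vertical axis, log scale), by group along the horizontal axis, with 1 point per library (open for the WT state table) and the group mean as a line. Group means of Sesn1, Perp and Trp53inp1 are highest in the FI groups, whereas those of Trp53, Mdm2, Ccng1 and Bax are lowest there.

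Among the targets tied to growth arrest and metabolism, Ccng1 and the sestrins did not move alike. Ccng1 encodes cyclin G1, a target that recruits a phosphatase to Mdm2, and its levels were 88.5 and 94.3 CPM in FI against 325 and 599 CPM in Cul. It rose by 2.34 on the log2 scale (SE 0.45, adjusted p = 0.0226 by edgeR), with no overlap. With WT FI index 0 or 1 left out the estimate was about as large (2.29 and 2.39) and did not pass (adjusted p = 0.131 and 0.104 by edgeR). Sesn1 and Sesn2 encode sestrins, stress proteins that restrain mTORC1 signalling. Sesn1 fell from 83.7 and 77.1 CPM to 17.2 and 18.4 CPM, and its replicates were nearly equal in both states. Its log2 difference was -2.18 (SE 0.33, adjusted p = 0.0151 by edgeR), and with WT FI index 0 or 1 left out it was -2.12 and -2.23 and did not pass (adjusted p = 0.0693 and 0.0554). Sesn2 was at 7.05 and 7.97 CPM in FI and at 12.5 and 38.5 CPM in Cul, so that 1 proliferating library was far above the other. Its difference of 1.76 (SE 0.63, 95% interval 0.15 to 3.37) did not pass with edgeR (adjusted p = 0.0916) and passed with DESeq2 (1.72, adjusted p = 0.0273). Trp53inp1 encodes a nuclear protein that promotes p53 phosphorylation and autophagy. Its levels were 135 and 185 CPM in FI and 56.0 and 117 CPM in Cul, a difference of -0.89 (SE 0.48, adjusted p = 0.212 by edgeR). It passed only with WT Cul index 1 left out, at -1.53 (adjusted p = 0.0139).

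The death-related targets also differed among themselves. Bax, the pore-forming protein of the mitochondrial outer membrane, stood at 29.7 and 19.3 CPM in FI and at 407 and 159 CPM in Cul. It rose by 3.53 on the log2 scale (SE 0.62, adjusted p = 0.0187 by edgeR), the largest rise of the 10 genes in this table, and passed in all 4 fits that left out 1 library. Bbc3, which encodes PUMA, a BH3-only activator of Bax, was low throughout, at 4.38 and 2.53 CPM in FI and 12.6 and 5.38 CPM in Cul. Its difference was 1.38 (SE 0.64, adjusted p = 0.158 by edgeR), and 1.86 without WT Cul index 1 (adjusted p = 0.0148). Perp, a membrane protein of desmosomes that takes part in p53-dependent death, went from 81.2 and 90.7 CPM to 1.88 and 4.65 CPM. This fall of 4.71 on the log2 scale (SE 0.59, adjusted p = 0.0125 by edgeR) passed in all 4 leave-one-out fits. Perp also separates the WT FI libraries of the tables, because it stood at 7.83 to 16.2 CPM in the 3 of the FI table, which had the lower fibroblast and pericyte marker sums given above. Trp53 and Bbc3 differ between these libraries the other way, with 86.4 to 190 CPM of Trp53 and 11.3 to 22.9 CPM of Bbc3 in the FI table, above their FI levels in the WT state table, and Ccng1 was lower in the FI table, at 45.1 to 47.2 CPM. Lower Trp53 in the FI libraries of the WT state table goes with its larger Cul to FI difference there. The part of other cell types in these levels was not tested. Eda2r, a receptor of the TNF receptor family for ectodysplasin A2, rose from 13.3 and 14.4 CPM to 68.7 and 142 CPM, by 2.93 on the log2 scale (SE 0.48, adjusted p = 0.0169 by edgeR). Eda2r passed in all 4 leave-one-out fits, and it overlaps the pseudogene Gm18111, so part of its count is uncertain.

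**Figure D2:**
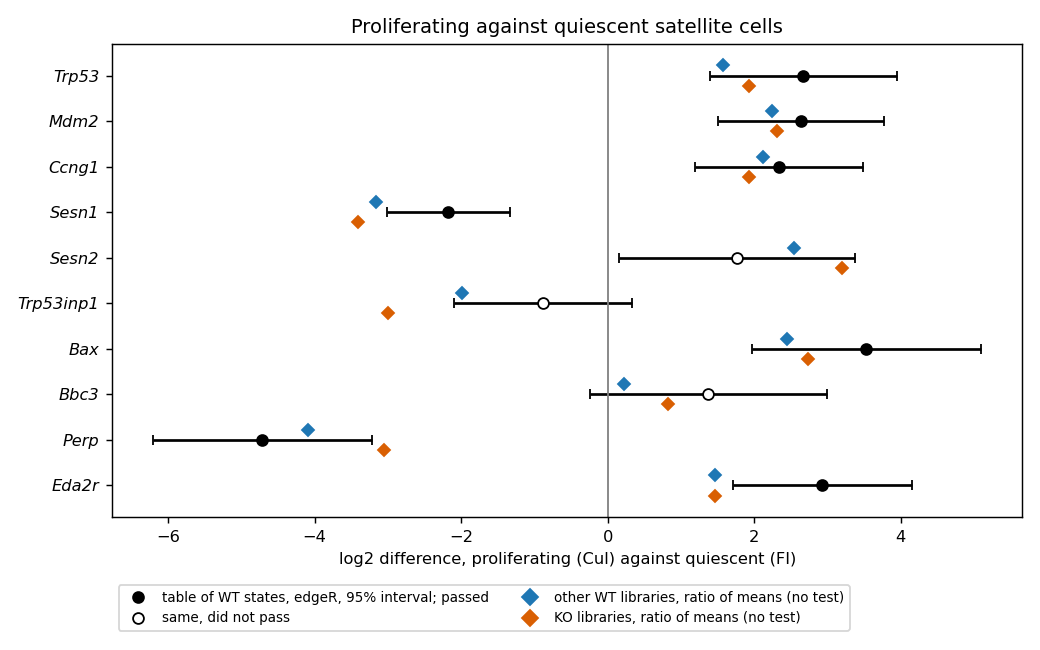
Log2 difference between proliferating and quiescent cells (horizontal axis) for each of the 10 genes in the WT state table, as circles (filled where passed) with the 95% interval as a bar, beside the ratio of means in the WT and SIRT1mKO libraries of the other tables as diamonds. Bax, Mdm2, Trp53, Ccng1 and Eda2r are right of 0 and Sesn1 and Perp left of 0 in all 3 sets.

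The same contrast can be read in libraries that the WT state table does not hold. The FI and Cul libraries of the SIRT1mKO tables were scaled together with all 18 libraries and described by the ratio of group means, without a test, since the tables were made separately. In WT cells 6 of the 10 genes were higher in Cul and 3 lower without overlap, where 78.4% of all 12982 genes common to the tables had no overlap. SIRT1mKO cells gave the same counts, 6 higher and 3 lower, where 79.9% of all genes had no overlap. Bbc3 was the gene that overlapped in both. Trp53 was 1.57 higher on the log2 scale in WT and 1.93 in SIRT1mKO cells, both less than the 2.67 of the WT state table. Mdm2 was 2.24 and 2.32 higher, Ccng1 2.12 and 1.93, Bax 2.45 and 2.74. Sesn2, which did not pass in the WT state table, was 2.55 and 3.19 higher, with every Cul library above every FI library. Eda2r was 1.47 and 1.46 higher, so its difference in these libraries was well under that of the WT state table. Sesn1 was lower in Cul, at -3.17 in WT and -3.41 in SIRT1mKO cells, as were Perp (-4.09 and -3.05) and Trp53inp1 (-1.98 and -2.99). The directions of these 9 genes were as in the WT state table. The share of all genes with the same direction in both sets is not given here. Fibroblast and pericyte markers were lower in Cul in this set too. Fibroblast markers summed to 4694 to 6872 CPM in FI and to 76.87 to 247.8 CPM in Cul, each scaled within its table. Pericyte and smooth muscle markers summed to 2496 to 5768 CPM in FI and to 41.89 to 88.85 CPM in Cul. Their part in these ratios was not tested.

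Differentiating cells held a mixed position. In WT cells 6 genes were above and 3 below FI without overlap (64.9% of all genes had none), and in SIRT1mKO cells 5 and 3 (71.5%). Relative to Cul, WT cells had 4 genes above and 2 below without overlap (46.3% of all genes), and SIRT1mKO cells 2 and 4 (48.2%). Ccng1 was above Cul by 0.65 in WT and 0.94 in SIRT1mKO cells on the log2 scale, and Sesn1 by 0.77 and 1.43. Trp53 was below Cul, at -0.58 and -1.04, and so was Mdm2, at -0.79 and -0.70. These 4 genes were the ones whose libraries did not overlap and whose direction was shared by both genotypes, picked after their values were seen. The share of all genes that meet both conditions is not given here. The Diff means also join libraries that split by index in Myog, as given above, and none of these ratios has a test.

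Compared per length, as the authors' FPKM values allow, the order of the 10 genes changed with the state. In WT FI libraries of the FI table Trp53 was first with a mean of 77.2 FPKM, followed by Bax at 50.7 and Sesn1 at 42.6 FPKM, and each of these overlapped the next, while Sesn1 did not overlap Mdm2, the fourth, at 23.4 FPKM. Sesn2 was last at 3.62 FPKM. In WT Cul libraries of the Cul table Bax led at 229 FPKM, ahead of Trp53 at 189, Mdm2 at 91.6 and Ccng1 at 46.0 FPKM. Sesn1 was then ninth at 3.67 FPKM and Perp last at 0.284 FPKM. In WT Diff libraries Bax was again first at 369 FPKM, then Trp53 at 132 and Ccng1 at 75.3 FPKM, so that Ccng1 stood ahead of Mdm2 at 54.9 FPKM. In the WT FI libraries of the WT state table Perp was first at 46.9 FPKM, a place it held in no group of the other tables.

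Whether loss of the SIRT1 deacetylase domain alters these transcripts was tested in each state. The Sirt1 gene total is the check of the label, although a total over the gene does not see the deletion of exon 4 directly. Its log2 difference between SIRT1mKO and WT was -0.30 in FI, -0.68 in Cul and -0.19 in Diff, and none passed (adjusted p = 1.00 in each by edgeR). Of the 10 genes, 0 passed in FI, Cul or Diff with edgeR, DESeq2 or limma. Of all genes, edgeR without a block passed 0 of 15146 in FI (0.0%), 0 of 13963 in Cul (0.0%) and 0 of 14482 in Diff (0.0%). DESeq2 passed 117, 3 and 0 genes, also after adjustment. At an unadjusted p under 0.05, edgeR gave 621 genes in FI (4.1%), 112 in Cul (0.802%) and 27 in Diff (0.186%). With the index as a block, edgeR passed 0 genes in FI, 3 in Cul and 147 in Diff, and 0 of the 10 in each. Among the 10 genes, Trp53inp1 in FI was the single one under an unadjusted 0.05 without the block. With it there were 3 in FI (Sesn2, Trp53inp1 and Eda2r), where 8.13% of all genes were under it, 1 in Cul (Eda2r, 12.1%) and 2 in Diff (Sesn1 and Eda2r, 6.31%). The lowest adjusted p of the 10 with the block was 0.523 in FI, 0.401 in Cul and 0.592 in Diff (edgeR).

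Trp53inp1 stood at 131, 99.4 and 125 CPM in WT FI (index 0, 1 and 2) and at 126, 223 and 258 CPM in SIRT1mKO FI. The SIRT1mKO library of index 0 lay among the WT values and the other two lay above all of them. The log2 difference was 0.77 (SE 0.28, 95% interval 0.09 to 1.45) and did not pass (adjusted p = 1.00, unadjusted p = 0.0315, edgeR). Between libraries of the same index it was -0.06, 1.17 and 1.05. Without both libraries of index 0, a choice made after seeing the data, it was 1.11 (SE 0.18) with an adjusted p of 0.188 by edgeR. The 2 SIRT1mKO libraries with high Trp53inp1 also had the lowest summed levels of 10 immediate early genes, which rise with cell dissociation. The sums were 16040 and 14470 CPM, against 25150 CPM in SIRT1mKO index 0 and 21890 to 28680 CPM in WT. Fos, Jun and Egr1, also on that list of 13, are not in these sums, because Cuffdiff did not flag them OK in the FI table. Summed cell cycle genes were 183 to 284 CPM in SIRT1mKO and 292 to 580 CPM in WT. Their part in the Trp53inp1 values was not tested.

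Trp53 in FI was 86.4, 190 and 125 CPM in WT against 86.3, 135 and 142 CPM in SIRT1mKO, a difference of -0.14 (SE 0.33) that lies within the spread of either genotype. Mdm2 was 81.8, 65.3 and 69.8 CPM in WT against 73.9, 59.5 and 63.3 CPM in SIRT1mKO. It was lower in SIRT1mKO at each index, by -0.15, -0.13 and -0.14, while the groups overlapped (difference -0.14, SE 0.13). Bbc3 was 21.1, 22.9 and 11.3 CPM in WT against 18.1, 7.39 and 9.27 CPM in SIRT1mKO, and its difference of -0.67 had a 95% interval of -1.69 to 0.36. Sesn2 was 14.5, 6.22 and 8.39 CPM against 11.2, 4.26 and 4.88 CPM. It was lower in SIRT1mKO at each index, by -0.36, -0.55 and -0.78, as was Eda2r, by -0.25, -0.20 and -0.45, while the groups overlapped for both. Bbc3 was also lower at each index, by -0.22, -1.63 and -0.28, and Ccng1 was higher at each, by 0.12, 0.16 and 0.05. The share of all genes with 1 sign at each index is not given here. Sesn1, the relative of Sesn2, was 121, 141 and 98.6 CPM in WT against 119, 172 and 158 CPM in SIRT1mKO, a difference of 0.32 (95% interval -0.15 to 0.78). For all 10 genes the WT and SIRT1mKO libraries overlapped in FI (9.22% of all genes did not overlap). For all 10 the range within at least 1 genotype was also larger than the difference between genotypes. The share of all genes with such a range is not given here. Ccng1 was the tightest, at 45.1 to 47.2 CPM in WT against 47.1 to 52.7 CPM in SIRT1mKO, with a difference of 0.11 and an interval of -0.12 to 0.33. Bax (-0.11), Perp (-0.45) and Eda2r (-0.29) had intervals that spanned 0.

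**Figure D3:**
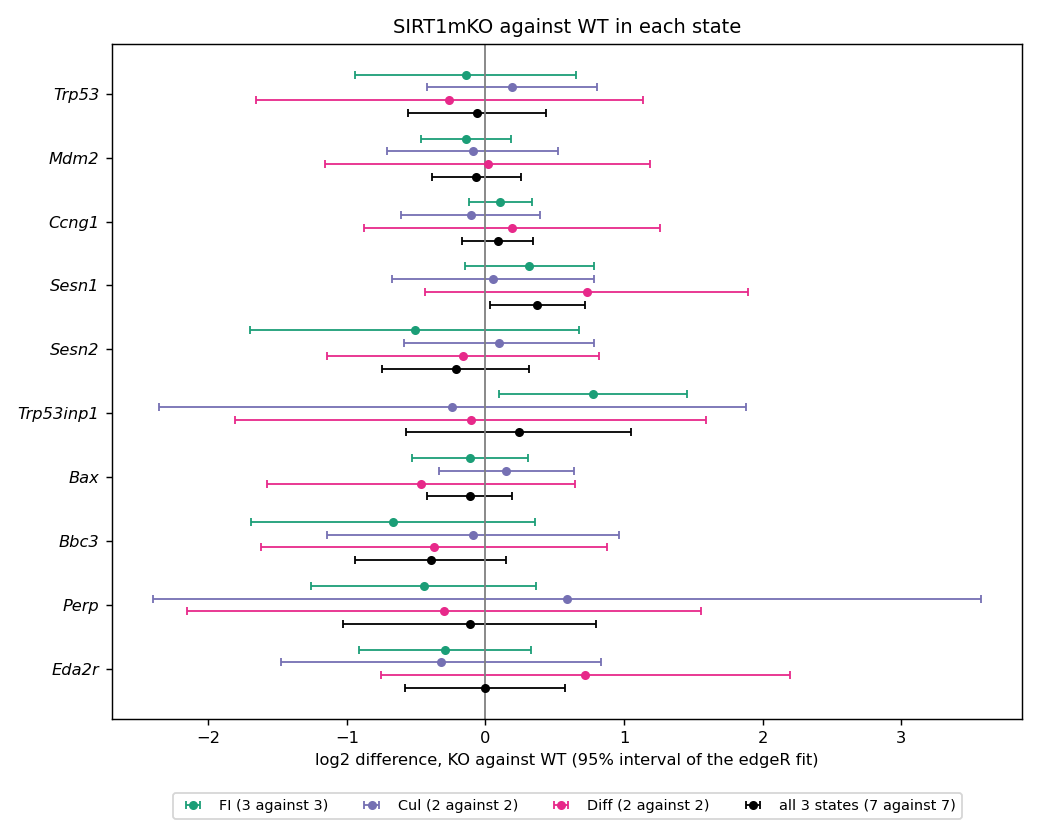
Log2 difference between SIRT1mKO and WT (horizontal axis) with its 95% interval for each of the 10 genes in FI, Cul and Diff cells and over the 3 states together. Intervals of all genes span 0 except Trp53inp1 in FI (0.09 to 1.45) and Sesn1 over the 3 states (0.03 to 0.72), and neither passed after adjustment over all genes.

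In proliferating cells the estimates of the 10 genes ran from -0.32 (Eda2r) to 0.59 (Perp). Trp53 was 345 and 272 CPM in WT against 384 and 318 CPM in SIRT1mKO, a difference of 0.19 (95% interval -0.42 to 0.80). Bax was 155 and 159 CPM in WT against 184 and 165 CPM in SIRT1mKO, and was the 1 gene of the 10 without overlap, where 23.0% of all genes had none. That difference was 0.15 (SE 0.19) and did not pass. Mdm2 was 225 and 308 CPM against 239 and 260 CPM, with both SIRT1mKO values between the WT ones. Trp53inp1 and Perp split by index: Trp53inp1 was 14.7 (WT) and 6.46 (SIRT1mKO) CPM at index 0 and 32.3 and 33.3 CPM at index 1, and Perp was 0.308 and 0.124 against 0.682 and 1.36 CPM. Their intervals were wide, -2.36 to 1.88 and -2.40 to 3.58 on the log2 scale. Eda2r split the same way, at 32.1 and 20.5 CPM against 49.7 and 45.1 CPM. The index 0 pair also had almost no Xist (1.06 and 0.359 CPM, against 2287 and 1217 CPM at index 1), as had the index 1 pair of Diff, and the part of this in the split was not tested.

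In differentiating cells the differences ran from -0.47 (Bax) to 0.73 (Sesn1). Sesn1 was 21.8 and 15.6 CPM in WT against 24.3 and 37.7 CPM in SIRT1mKO. It was the single gene of the 10 without overlap, where 13.2% of all genes had none. It was also the single one whose difference (0.72 between mean log2 levels) exceeded the range within either genotype (0.48 and 0.63). The share of all genes that do so is not given here, so this does not set Sesn1 apart. Its fitted difference of 0.73 had a 95% interval of -0.43 to 1.89. Eda2r was 47.1 and 27.2 CPM in WT against 37.1 and 85.3 CPM in SIRT1mKO, so the genotypes were ordered one way at index 0 and the other way at index 1. Bax was 188 and 326 CPM in WT against 189 and 183 CPM in SIRT1mKO, so that its difference rests on WT index 1. Trp53 was 260 and 175 CPM in WT against 252 and 111 CPM in SIRT1mKO, lower at index 1 in both genotypes. Fibroblast markers summed to 288 to 427 CPM in WT against 591 to 709 CPM in SIRT1mKO Diff libraries, and their part in these values was not tested.

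Over the 3 states together, 14 libraries with state and genotype in 1 model, 0 of the 10 genes passed with edgeR or DESeq2, and 1 of 16698 genes did (0.00599%; DESeq2 passed 29, and edgeR 27 with the index as a block). At an unadjusted p under 0.05 there were 366 genes (2.19%), of which Sesn1 was the single one of the 10. Sesn1 was higher in SIRT1mKO by 0.37 (SE 0.16, 95% interval 0.03 to 0.72; adjusted p = 1.00, unadjusted p = 0.0354, edgeR), and it was higher in 5 of 7 pairs of the same index. The intervals bound the mean change that these libraries leave room for. Mdm2 had -0.07 (-0.39 to 0.26), Ccng1 0.09 (-0.17 to 0.34), Bax -0.11 (-0.42 to 0.19) and Trp53 -0.06 (-0.56 to 0.44). They were wider for Bbc3, at -0.39 (-0.94 to 0.15), Sesn2, at -0.21 (-0.75 to 0.32), Eda2r, at 0.00 (-0.58 to 0.58), Trp53inp1, at 0.24 (-0.57 to 1.05), and Perp, at -0.11 (-1.03 to 0.80). Bbc3, Sesn2 and Eda2r were lower in SIRT1mKO in 6 of 7 same-index pairs, Mdm2 and Perp in 5 and Trp53 in 4. Ccng1 and Bax were higher in 5, and Trp53inp1 in 4. The share of all genes with such counts is not given here, and the labels do not say that an index marks a pair. No direction is therefore read from these counts.

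The difference between genotypes was also compared between states, by interaction terms in the same 14 libraries. Of the 10 genes 0 passed in Cul against FI, Diff against FI or Diff against Cul with edgeR or DESeq2, as did 0 of 16698 genes (0.0% in each; 196, 211 and 245 genes, or 1.17%, 1.26% and 1.47%, at an unadjusted p under 0.05 with edgeR, with 0 of the 10 among them). Eda2r had the largest interaction between Diff and FI, 1.02 (95% interval -0.36 to 2.40, adjusted p = 1.00 by edgeR). For Trp53inp1, whose estimate was above 0 in FI and below 0 in Cul, the interaction of Cul with FI was -1.01 (-3.03 to 1.02). A difference between states in the effect of genotype was thus not detected for any of the 10 genes with these numbers of libraries.

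Libraries of 1 group differed from each other, and some pairs of these genes deviated together or in opposite ways. Deviations of log2 CPM from the group mean, over 18 libraries in 8 groups, had a Pearson correlation of 0.78 for Mdm2 with Ccng1, 0.80 for Trp53inp1 with Perp and 0.61 for Sesn2 with Eda2r. Negative values included -0.82 for Ccng1 with Bax, -0.75 for Mdm2 with Bax and -0.81 for Trp53 with Sesn2. The correlations describe these libraries, which share tables, index pairs and scaling, and carry no test. Trp53 with Mdm2, Ccng1 and Bbc3 gave -0.19, -0.05 and -0.08. In WT Diff, Trp53, Mdm2 and Ccng1 were all lower at index 1 than at index 0, by -0.57, -0.91 and -0.66 on the log2 scale. The WT Cul libraries of the WT state table split another way. From index 0 to index 1, Sesn2 differed by 1.63 on the log2 scale, Perp by 1.31, Trp53inp1 by 1.06, Eda2r by 1.05, Ccng1 by 0.88 and Mdm2 by 0.81, while Trp53 differed by -1.03, Bbc3 by -1.22 and Bax by -1.36. The library with more Trp53 and Bax mRNA was thus the one with less Mdm2 and Ccng1. It also had 807 CPM of Myog against 9.05 CPM, and 1191 CPM of Cdkn1a, the p21 cell cycle inhibitor, against 614 CPM, and their part in the split was not tested.

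**Figure D4:**
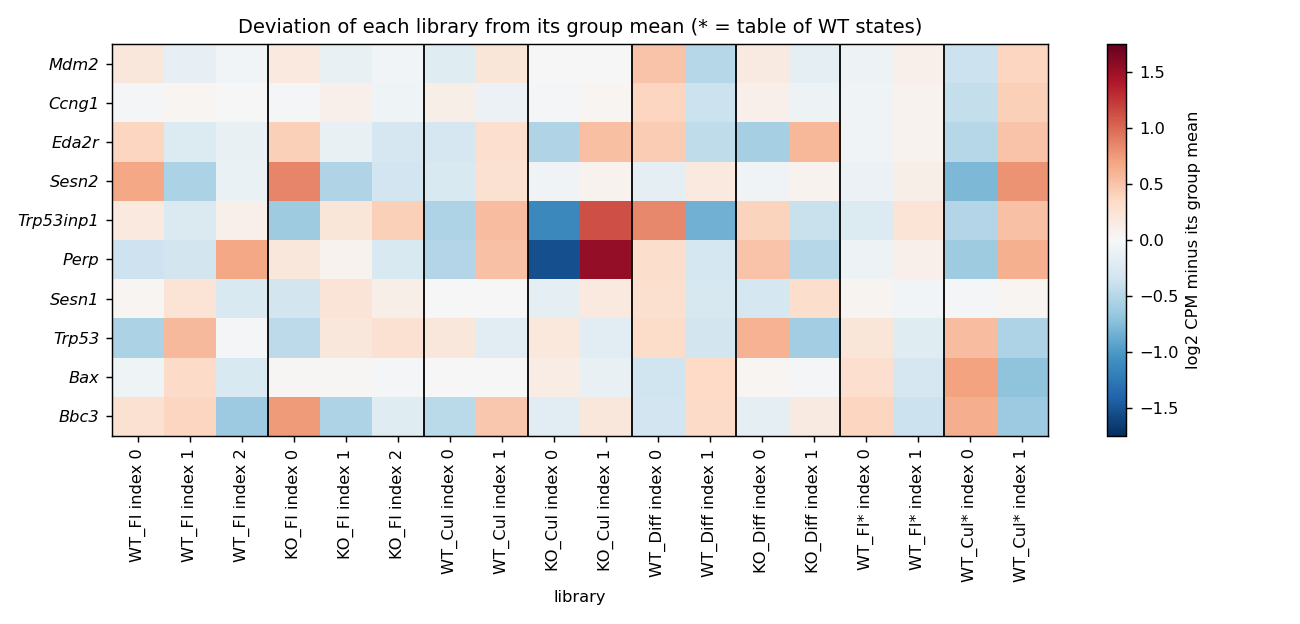
Deviation of each of the 10 genes from its group mean (log2 CPM, colour scale) in each of the 18 libraries, which are ordered by table and group. In the WT Cul libraries of the WT state table, Trp53, Bax and Bbc3 lie on one side of 0 and Mdm2, Ccng1, Sesn2, Perp, Trp53inp1 and Eda2r on the other.

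Other p53 targets also moved both ways between quiescent and proliferating WT cells. Of 38 tested in 4 lists, 11 rose and 3 fell, where 12.6% of all genes rose and 16.0% fell, and the median log2 difference was 0.53 against 0.06 for all genes. Of 11 arrest targets 5 rose and 1 fell: Gtse1, which promotes p53 export and degradation in G2, rose by 5.22 (adjusted p = 0.015), and Btg2, an antiproliferative gene, fell by 4.42 (adjusted p = 0.00962, both by edgeR). The other 4 that rose, named after their values were seen as are all genes in the rest of this paragraph not said to be otherwise, were E2f7 (2.70), Zmat3 (2.42), Plk2 (2.35) and Cdkn1a (2.10). Of 10 death targets 4 rose: Aen (2.75), Tnfrsf10b (2.58), Phlda3 (2.34) and Pmaip1 (1.74), which encodes NOXA. In the metabolic list of 12, Sco2 (3.98) and Gls2 (2.19), of mitochondrial respiration and glutamine use, rose and Ephx1 (-1.42) fell, and of 5 repair targets Ddb2 (-1.77) fell. Of 21 regulators of p53, 3 rose: the checkpoint kinase Chek1 (3.93, adjusted p = 0.0109 by edgeR, picked by rule), Ppp1r13l (2.46) and the deubiquitinase Usp10 (1.24).

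**Figure D5:**
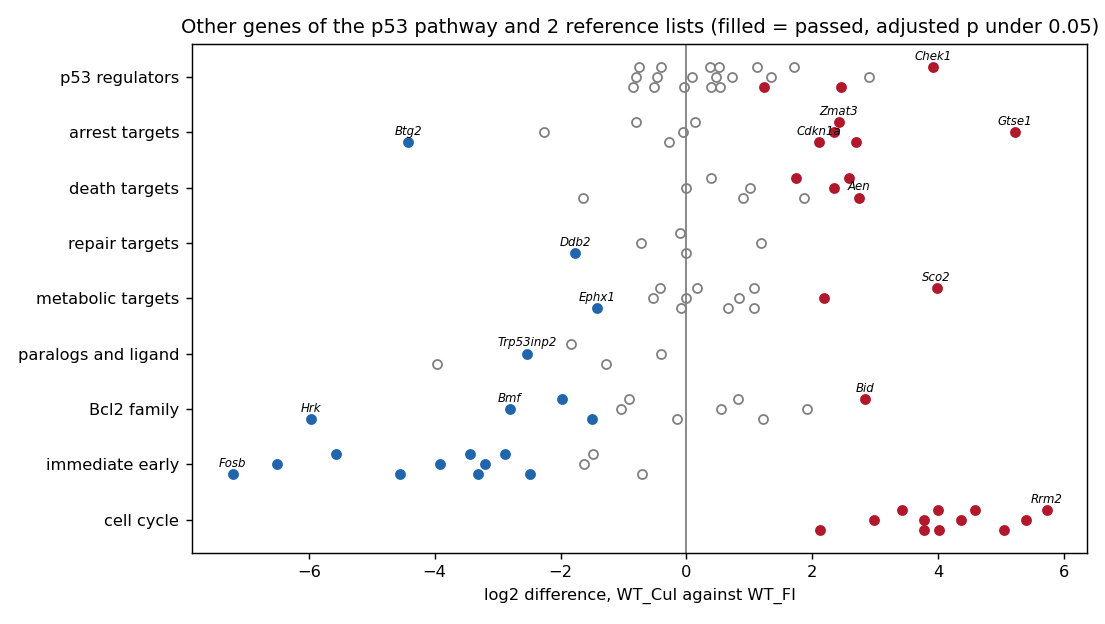
Log2 difference between proliferating and quiescent WT cells (horizontal axis) for each gene of the other p53 lists and of 2 reference lists, 1 point per gene and 1 band per list, with filled points for genes that passed edgeR's test. Cell cycle genes lie right of 0 and immediate early genes left of 0, and the target lists lie on both sides.

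In the BCL2 family, Bid (2.83) rose and 4 of 12 fell, where 28.6% of all genes passed in either direction. They were Hrk, a BH3-only activator of death (-5.97, adjusted p = 0.00988 by edgeR, picked by rule), Bmf (-2.81), Bcl2 (-1.98) and Mcl1 (-1.5). Paralogs of the 10 genes and the ligand of Eda2r gave 1 of 5 that fell, Trp53inp2 (-2.53), a paralog of Trp53inp1. All 12 cell cycle genes rose, and those with the smallest p-values were Rrm2 (5.73), Ccnb1 (5.40), Bub1 (4.36), Mcm5 (4.00), Mcm3 (3.77) and Mcm2 (3.43). Of 13 immediate early genes 10 fell, and those with the smallest p-values were Fosb (-7.21), Fos (-6.51), Nr4a1 (-5.57), Egr1 (-4.55), Atf3 (-3.91) and Klf4 (-3.21), so both reference lists moved with the state. Their part in the levels of the 10 genes was not tested.

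Between genotypes, 0 genes of these lists passed with edgeR in any state or over the 3 states. Of the other p53 targets, 3, 1 and 0 of 37 had an unadjusted p under 0.05 in FI, Cul and Diff, where the shares of all genes were 4.1%, 0.802% and 0.186%. The rule for naming genes then gives the lowest p-values without a call. In FI these were Ptprv (1.79, adjusted p = 0.774 by edgeR), a phosphatase gene of p53-dependent arrest, and Mcm2 (-0.69), Mcm5 (-0.68) and Mcm3 (-0.51), of the replicative helicase. In Cul they were Hipk2 (-0.85), Pmaip1 (-0.90), Ep300 (-0.52) and Jund (0.44), and in Diff Abhd4 (-0.56), Plk3 (-0.68), Bcl2l11 (-0.57) and Sesn3 (0.55). Over the 3 states they were Ptprv (1.39), Ddit4 (0.47), Plk3 (-0.46) and Klf4 (-0.34), each with an adjusted p of 1.00 by edgeR.

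Genes with the profile most like Trp53 over all 18 libraries, among 12981 compared by log2 CPM, were Srm (Pearson's r 0.99), Raver1 (0.98), Wdr46 (0.98), Xrcc6bp1 (0.98) and Acy1 (0.98). For Mdm2 they were Sec23b (0.98), Zmat3 (0.98), Pigw (0.97), Usp15 (0.97) and Ubqln1 (0.97). Zmat3 is itself on the list of arrest targets. The libraries fall into states, which most genes follow, so these values are a description.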

How the data were processed

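PolyA RNA of 18 libraries was analysed; the other 10 samples of the series, chromatin immunoprecipitation and input, were not analysed here. The authors deposited 4 Cuffdiff tables, which hold estimated counts (raw fragments) and FPKM for every gene in each library, per the file headers. Bowtie, TopHat, Cuffdiff and the build mm9 are named in the submitters' processing notes, with versions, annotation and strand setting not given in the sources used here. Table conditions were matched to groups by name, proliferating cells as the state that remained. Table indices are not the labels' replicate numbers, so a condition holds libraries of a group without saying which.

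Estimated counts were rounded. Genes not flagged OK by Cuffdiff (12 to 27 a table, 0 of the 10) were left out, low counts were filtered by filterByExpr, and tables were fitted separately with edgeR 4.0.16 (R 4.3.3), TMM and the robust quasi-likelihood test, with Benjamini-Hochberg adjustment over all genes and a threshold of 0.05. The 3 SIRT1mKO tables were joined for the 3-state and interaction models. Alternatives were DESeq2 1.42.0, RLE factors, no filter, limma 3.58.1 on log2(FPKM + 1), the index as a replicate block, and each library left out. No 2 libraries of a group agreed within sampling noise (lowest chi-square per degree of freedom 27.92). Deviations of libraries with the same index correlated at 0.85, 0.65 and 0.53 in FI, 0.77 in Cul, 0.79 in Diff and 0.50 in the WT state table. Libraries of FI index 1 and 2 also correlated across indices, at 0.52 and 0.35.

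The 10 genes and all lists (p53 regulators; arrest, death, repair and metabolic targets; paralogs and ligand; BCL2 family; immediate early; cell cycle; cell type markers) were chosen with earlier results of these data known. Besides the 10 genes and Sirt1, the rule names from the pathway lists up to 8 genes that passed in each direction by smallest p, or the 4 smallest p-values where fewer than 4 passed, and the 5 genes most correlated with Trp53 and with Mdm2.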

Additional observations from a re-analysis of the deposited data

Results flagged for a closer look

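Of 20 combinations of gene and group with 4 or more libraries that were checked for a library far from the others, 3 were marked, where chance marks about 1 in 20. Levels here are CPM scaled over all 18 libraries. Sesn2 stood at 13.1 CPM in WT FI index 0 of the FI table, against 5.55 to 7.62 CPM in the other 4 WT FI libraries. Eda2r stood at 21.7 CPM in the same library, against 12.5 to 15.2 CPM. That library belongs to the deeper index 0 pair with the higher share of fragment values that are not whole, and it and its SIRT1mKO partner had the highest Sesn2 and Eda2r of their genotypes in the FI table. Bax stood at 402 CPM in WT Cul index 0 of the WT state table, against 152 to 181 CPM in the other 3 WT Cul libraries, and this is the library with Myog at 807 CPM. Without it the rise of Bax still passed edgeR's test.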

How the results depend on the processing

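Scaling by RLE factors and testing without the low-count filter left the call and direction of all 50 values (10 genes in 5 comparisons) as they were. Sesn2 in WT Cul against FI passed with DESeq2 and with the replicate block (1.55, adjusted p = 0.0384 by edgeR), and the block changed no other call of the 10 genes; 8 passed with it in place of 7. Same-index libraries deviated together in all 3 pairs of FI, but libraries of index 1 and 2 did so across indices as well. WT FI index 1 with SIRT1mKO index 2 had a correlation of 0.52, and WT FI index 2 with SIRT1mKO index 1 had 0.35. Index 0 had negative correlations with both other indices. The other tables hold 2 pairs each, and the labels do not say that an index marks a shared batch. Trp53inp1 in Diff was -0.11, and 0.0261 with limma and 0.0561 with the block. Genes that passed between genotypes in FI were 117 with DESeq2, and 1 without both index 0 libraries; in Cul 3 with DESeq2 and 3 with the block; in Diff 147 with the block; over the 3 states 29 with DESeq2, 27 with the block, and 0 to 7 with 1 library left out. WT Cul against FI gave 2063 to 8050 genes, and 3 to 9 of the 10, with 1 library left out; an arm left with 1 library is assumed to vary like the other.

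Leaving out 1 library turned the sign of 21 of the 50 values, 0 of them called. In FI, Trp53 ranged from -0.37 to 0.19 and Bax from -0.23 to 0.0801. In Cul the ranges were Mdm2 -0.31 to 0.15, Trp53inp1 -1.86 to 0.48, Bbc3 -0.51 to 0.48, Sesn1 -0.18 to 0.23, Sesn2 -0.17 to 0.41, Perp -1.98 to 1.44 and Eda2r -0.998 to 0.12. In Diff they were Trp53 -0.97 to 0.24, Mdm2 -0.37 to 0.56, Ccng1 -0.10 to 0.57, Trp53inp1 -0.70 to 0.92, Bbc3 -0.69 to 0.0544, Sesn2 -0.34 to 0.0585 and Perp -0.88 to 0.14. Over the 3 states they were Trp53 -0.18 to 0.071, Mdm2 -0.17 to 0.0328, Bax -0.18 to 0.0119, Perp -0.61 to 0.14 and Eda2r -0.30 to 0.12. The cause was not tested. Cul and Diff have 2 libraries a group, and Perp is under 2 CPM there.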

Other observations

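Cdkn1a, the arrest target most often read as a sign of p53 activity, did not keep 1 level in proliferating WT cells. It stood at 242 and 281 CPM in the WT Cul libraries of the Cul table and at 1191 and 614 CPM in those of the WT state table, against 205 to 356 CPM in the 5 WT FI libraries, each scaled within its table. Its rise of 2.10 on the log2 scale was found in the WT state table, and the WT Cul libraries of the Cul table lie within the range of the FI libraries. Mdm2, in contrast, was above its FI libraries in all 4 WT Cul libraries, at 225 to 588 CPM. In Diff, Cdkn1a was 267 (WT) and 320 (SIRT1mKO) CPM at index 0 and 1874 and 2393 CPM at index 1, the order of Myog, while Mdm2 was 210 and 179 CPM at index 0 and 112 and 147 CPM at index 1.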
